A study of Mus musculus with 48 samples.

Results

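The genes described here are 38 mouse genes widely used as markers of macrophages and other immune cells, chosen by symbol and followed in RNA-seq libraries of adipogenic cultures. They are 38 of the 55450 genes in the deposited tables, each symbol matching a single gene, and they read the leukocyte content of the cultures. All mice were of the C57BL/6 strain and were either Wild type (WT) or lacked the nucleosome-binding proteins HMGN1 and HMGN2 (Hmgn1-/- Hmgn2-/-, DKO). Preadipocytes were grown from inguinal white adipose tissue (iWAT) and MEFs (mouse embryonic fibroblasts) from embryos. Both were switched to a medium with insulin, dexamethasone, IBMX, T3 and rosiglitazone, which turns them into brown-like adipocytes. By the paper's methods it was kept for 4 days on preadipocytes and 8 days on MEFs. A maintenance medium with insulin and T3 followed. Across a switch, day and medium changed together and cannot be told apart. Preadipocytes were sampled at days 0, 3, 6 and 9 and MEFs at days 0, 4, 8 and 12, 3 libraries of either genotype being made per day, 48 in all. The knockout was constitutive, so any leukocytes in a DKO culture lacked both proteins as well. The libraries are bulk, and in bulk libraries fewer cells of a type and less RNA per cell cannot be told apart.

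Macrophages are phagocytes that settle in nearly every tissue, adipose tissue included, and clear dying cells. They depend on CSF1R, the receptor for the growth factors CSF1 and IL34, and on the transcription factor PU.1, encoded by Spi1. They carry Fc receptors that bind antibody and scavenger receptors that take up lipoproteins and debris, and they are a main source of the complement protein C1q.

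The genes were grouped by role. Ptprc (CD45), Laptm5, Cd53, Coro1a and Cd84 are carried by most leukocytes. Spi1 and Irf8 encode myeloid transcription factors, and Csf1r, Cx3cr1 and Ccr2 receptors for growth factors and chemokines. Fcgr1, Fcgr3, Fcgr2b, Fcer1g, Tyrobp and Trem2 encode Fc receptors and the receptors and adaptors that signal in a like way. C1qa, C1qb and C1qc encode the chains of C1q. Mrc1, Cd163, Msr1, Marco, Clec7a, Cd14, Vsig4, Timd4, Cd5l and Cd68 encode scavenger and pattern recognition proteins. Adgre1 (F4/80), Ms4a7, Mpeg1 and Aif1 encode macrophage surface and cytoplasmic proteins, and Lyz2, Ctss and Cybb a lysozyme, a lysosomal protease and an oxidase subunit. Cd74 encodes the MHC class II chaperone and Ighm the immunoglobulin heavy chain mu. Of the 38 genes, 28 are largely restricted to leukocytes, 9 are also used by other cells (Cd68, Lyz2, Mrc1, Ctss, Cd14, Fcgr2b, Cd74, Msr1 and Irf8), and Ighm was kept apart.

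Library totals ran from 19809397 to 36006696 expected counts in preadipocytes and from 18962483 to 33083213 in MEFs. Hmgn2 averaged 0 to 0.119 CPM (counts scaled to a common library size by TMM) in the 8 DKO groups and 43.0 to 178 CPM in the 8 WT groups. Hmgn1 was still counted in DKO, at group means of 82.8 to 100.2 CPM against 84.1 to 187 CPM in WT. Counts per gene do not separate the deleted exons from the others. The paper states that DKO cells lack transcripts of the deleted exons and, by western blot, both proteins. Several libraries stood apart. In MEFs at day 8, WT library 2 and DKO library 3 held 538 and 823 summed CPM of 7 adipocyte genes, against 3563 to 7148 in the other 4, and at day 4 WT library 1 held 1807 against 261 and 249.6 in the other WT libraries. In MEFs at day 0, DKO library 2 was below the other 5 in the leukocyte sum. The labels do not say that libraries of a group came from separate cultures or animals, so p-values measure the spread between these libraries.

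The name of the gene group was checked against markers of other cells. In any of the 48 libraries, lists of T cell, B cell, NK cell, mast cell, dendritic cell and neutrophil markers summed to at most 3.10, 0.438, 0.168, 1.90, 2.77 and 9.88 CPM. The 28 leukocyte-restricted genes summed to 23.8 to 4998 CPM in preadipocytes and 995 to 5174 CPM in MEFs. Outside leukocytes, lists of endothelial, Schwann cell, skeletal muscle, epithelial and erythroid markers reached 32.7, 83.8, 203, 12.75 and 1.32 CPM. The highest endothelial, Schwann cell and muscle sums were thus above the lowest leukocyte sum of preadipocytes. Cd74 stayed at or below 0.547 CPM throughout, and of 6 MHC class II genes H2-Aa and Ciita were at or under 3 counts in all libraries. The 6 together summed to 13.5 to 30.8 CPM in preadipocytes and 4.90 to 12.04 CPM in MEFs, most of it from H2-DMb1, H2-DMa and, in preadipocytes, H2-Ab1. Ccr2, the receptor that draws monocytes out of the blood, was at or under 3 counts in all 24 preadipocyte libraries. The abundant members were thus those of macrophages, while the listed markers of lymphocytes, mast cells and dendritic cells summed to a few CPM at most.

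Promoter windows, from 250 bases before to 50 bases after the gene start, were available for 29 of the 38 genes (RefSeq, GRCm38.p6). Those of 5 genes are shown: a pair of neighbouring C1q chains, Ctss, Lyz2, and Cd53, whose day 0 level set it apart. Of these, Ctss and Lyz2 were called lower in DKO preadipocytes at day 6, and the C1q chains were not called. Capitals mark the word GAGGAAGT on either strand (ACTTCCTC on the other), which holds the GGAA core recognised by PU.1 and other ETS factors.
C1qb, chr4:136886151-136886450, minus strand: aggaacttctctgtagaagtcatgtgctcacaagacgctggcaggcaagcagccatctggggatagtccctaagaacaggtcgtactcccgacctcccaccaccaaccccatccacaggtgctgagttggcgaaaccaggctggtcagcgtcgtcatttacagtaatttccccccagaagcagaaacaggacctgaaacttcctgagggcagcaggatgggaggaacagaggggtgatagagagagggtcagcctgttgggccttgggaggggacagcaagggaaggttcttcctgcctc
C1qc, chr4:136892865-136893164, minus strand: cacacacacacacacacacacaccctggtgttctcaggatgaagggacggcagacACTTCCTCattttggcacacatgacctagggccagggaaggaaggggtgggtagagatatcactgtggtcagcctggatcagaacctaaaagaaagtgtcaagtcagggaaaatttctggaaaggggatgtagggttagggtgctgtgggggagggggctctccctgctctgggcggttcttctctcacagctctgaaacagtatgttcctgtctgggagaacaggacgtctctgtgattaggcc
Ctss, chr3:95526536-95526835, plus strand: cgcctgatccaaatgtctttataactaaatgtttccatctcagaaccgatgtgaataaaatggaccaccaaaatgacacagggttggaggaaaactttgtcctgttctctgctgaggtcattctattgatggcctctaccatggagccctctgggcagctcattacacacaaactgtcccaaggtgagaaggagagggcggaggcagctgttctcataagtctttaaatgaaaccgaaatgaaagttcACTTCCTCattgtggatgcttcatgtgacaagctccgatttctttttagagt
Cd53, chr3:106790100-106790399, minus strand: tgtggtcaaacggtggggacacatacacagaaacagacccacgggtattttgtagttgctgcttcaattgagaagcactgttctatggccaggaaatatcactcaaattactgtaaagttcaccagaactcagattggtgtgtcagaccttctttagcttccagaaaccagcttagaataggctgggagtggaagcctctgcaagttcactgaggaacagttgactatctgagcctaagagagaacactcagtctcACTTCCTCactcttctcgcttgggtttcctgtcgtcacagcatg
Lyz2, chr10:117282223-117282522, minus strand: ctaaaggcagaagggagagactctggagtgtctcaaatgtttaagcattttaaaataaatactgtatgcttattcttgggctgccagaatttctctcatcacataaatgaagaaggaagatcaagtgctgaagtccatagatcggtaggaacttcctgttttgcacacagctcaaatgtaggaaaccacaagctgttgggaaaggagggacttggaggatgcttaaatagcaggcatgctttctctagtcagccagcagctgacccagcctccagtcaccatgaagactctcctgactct

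The word was present in the windows of 3 of the 29 genes, Ctss, Cd53 and C1qc, and in 3.2% of all 32851 windows in the table. It began at base 249 of the window in Ctss, 257 in Cd53 and 56 in C1qc, counted from the 5′ end. The shorter AGGAAGT, contained in it, was present for 8 genes, C1qb and Lyz2 among them, and in 9.35% of all windows. GAGGAAG was present for 10 genes (13.6% of windows), GAGGAA for 19 (28.3%) and TATAAA for 5 (13.6%). The 29 genes had 35 windows, and a gene was counted if any of its windows matched. By window the matches were 3 of 35 for GAGGAAGT, 9 for AGGAAGT, 11 for GAGGAAG, 21 for GAGGAA and 5 for TATAAA. A match describes the letters of the window and was not tested as a binding site. C1qa, C1qc and C1qb lie together on the minus strand of chromosome 4, between bases 136880129 and 136898803 (mm10).

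The first question was how the leukocyte signal moved over differentiation. In WT preadipocytes it was low at days 0 and 3 and high at days 6 and 9. The summed CPM of the 28 leukocyte-restricted genes was 267, 197 and 80.8 at day 0, 35.97, 103 and 37.2 at day 3, 2667, 4998 and 4275 at day 6, and 2090, 3509 and 2963 at day 9. Every library of the later pair of days was above every library of the earlier pair. All 38 genes together took 0.022% to 0.0758% of the counts at day 0 in WT and 0.879% to 1.4% at day 6. In WT MEFs the sum was 4503, 5174 and 4628 CPM at day 0, 1642, 1121 and 1139 at day 4, 1702, 2344 and 1767 at day 8, and 2936, 2879 and 2871 at day 12. The MEF signal was therefore highest at day 0, and days 0 and 12 did not overlap.

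**Figure D1:**
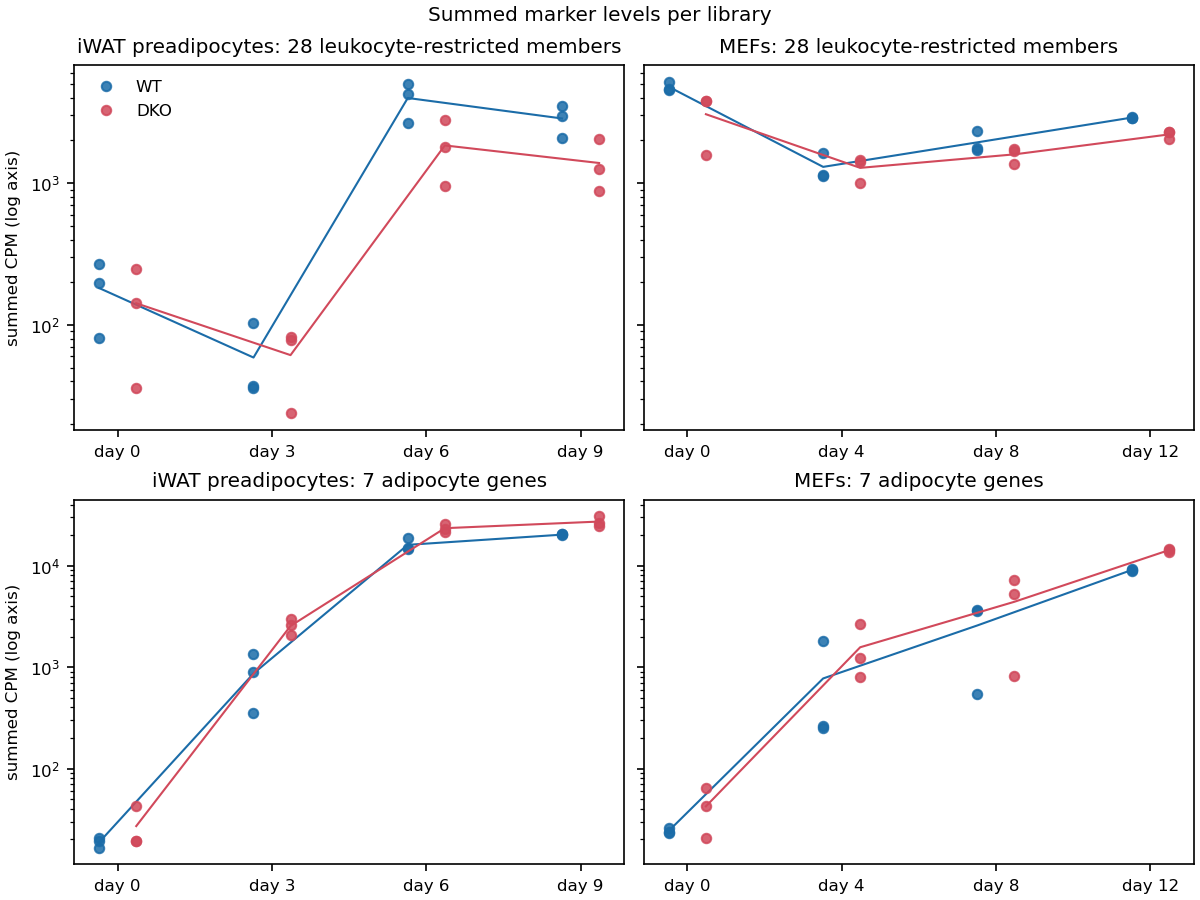
Summed CPM (log axis) of the leukocyte-restricted genes and of 7 adipocyte genes in each library by day, for preadipocytes and MEFs. Points are libraries and lines join group means (n = 3). The leukocyte sum of preadipocytes is 23.8 to 267 CPM at days 0 and 3 and 878 to 4998 CPM at days 6 and 9, and that of WT MEFs is highest at day 0.

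In WT preadipocytes 32 of the 34 genes that passed the filter on low counts rose from day 0 to day 9 by edgeR's quasi-likelihood test (adjusted p under 0.05 and a fold of at least 1.5), against 26.6% of all genes tested. Their median log2 fold change was 4.13, against 0.00 for all genes. In DKO preadipocytes 28 of 32 rose, against 27% of all genes, with a median of 3.35. The exceptions in WT were Clec7a, a receptor for fungal glucans, at 0.91 ± 0.66 (SE, edgeR adjusted p = 0.25), and Cd53, a leukocyte tetraspanin, at 0.66 ± 0.45 (adjusted p = 0.238). In DKO, Fcgr2b and Coro1a also did not pass.

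Between sampled days, folds of group means were taken for leukocyte-restricted genes above 3 counts, with no test. In WT preadipocytes the median fold was 0.326 from day 0 to day 3 (21 genes), with Mpeg1 lowest at 0.0907. From day 3 to day 6 it was 55.1 (21 genes), ranging from 0.732 for Clec7a, whose libraries overlapped, to 149 for C1qa. From day 6 to day 9 it was 1.11 (25 genes), ranging from 0.196 for Marco to 6.83 for Aif1. Every gene compared other than Clec7a was thus higher at day 6 than at day 3, while the last step held both higher and lower genes. The DKO medians for the same steps were 0.435, 25.5 and 1.12.

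**Figure D2:**
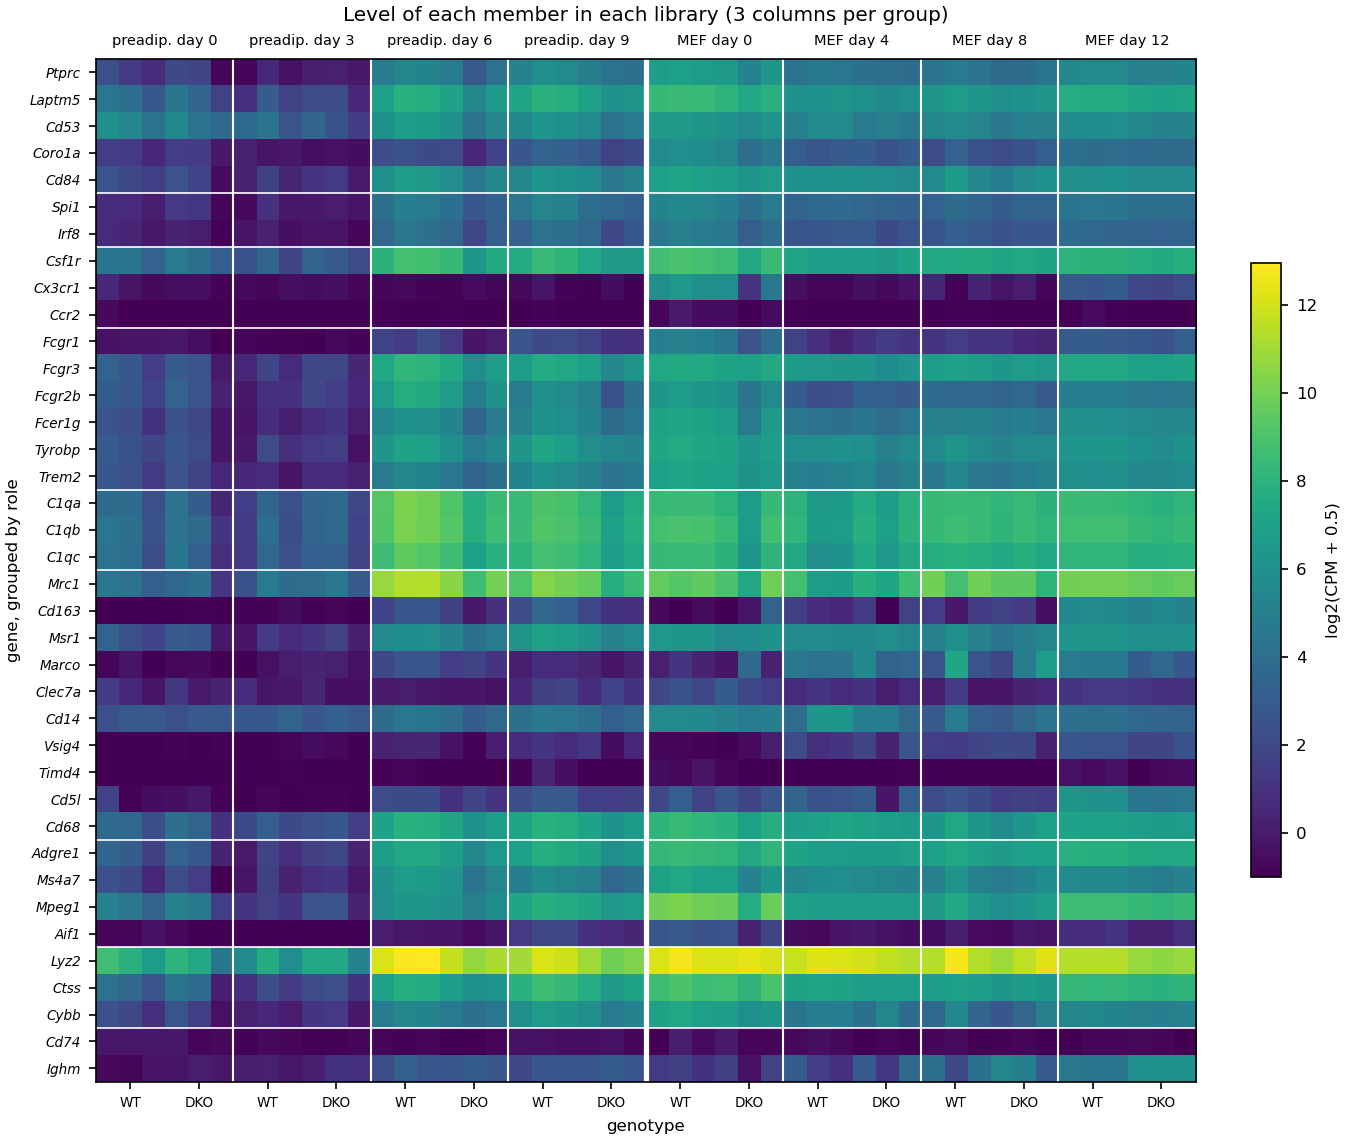
Level of the 38 genes, grouped by role, in each of the 48 libraries (columns, 3 per group), coloured by log2(CPM + 0.5). Most genes are low in preadipocytes at days 0 and 3 and high at days 6 and 9, and most are high in MEFs at day 0, when Cd163 and Vsig4 are near 0 in WT.

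Lyz2, the lysozyme of phagocytes, was the most abundant of the genes per length, at a WT mean of 188 CPM per kb in preadipocytes at day 0 and 5090 at day 6. In WT preadipocytes it measured 410.3, 229.7 and 104 CPM at day 0, 4595, 7567 and 7954 at day 6 and 2056, 4599 and 3749 at day 9. Each day 6 library was above each day 9 library except that day 9 library 2 was level with day 6 library 1. Lyz2 took 29.7% to 75.1% of the summed CPM of the 38 genes, and its counts were not whole in 34 of 48 libraries, so reads were shared with another sequence and its level is uncertain to that extent. Ctss, a lysosomal protease of antigen-presenting cells, measured 18.8, 12.1 and 5.53 CPM at day 0, 126, 223 and 194 at day 6 and 241, 388 and 315 at day 9, and its day 9 libraries were all above those of day 6. Its change from day 0 to day 9 was 4.70 ± 0.45 (SE, log2, edgeR adjusted p = 0.000154).

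The C1q chains climbed steeply and were past their peak by day 9. C1qa measured 13.8, 14.7 and 4.78 CPM at day 0, 589, 1187 and 966 at day 6 and 349, 528 and 478 at day 9 in WT preadipocytes. C1qb measured 21.4, 17.4 and 5.28, 576, 1122 and 924 and 358, 584 and 496 CPM on the same days. C1qc measured 18.6, 16.3 and 4.68, 378, 751 and 622 and 266, 449 and 387 CPM. For each chain the day 9 libraries lay between those of days 0 and 6, apart from an overlap for C1qb and C1qc with day 6 library 1. From day 0 to day 9 all 3 rose, by a median log2 fold change of 5.04.

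Mpeg1, a pore-forming protein of phagocytes, followed another course: 36.1, 22.7 and 10.3 CPM at day 0, 58.1, 84.0 and 78.6 at day 6 and 142, 213 and 183 at day 9. The ratio of Mpeg1 to C1qa within a library was 1.55 to 2.62 at day 0, 0.0708 to 0.0986 at day 6 and 0.382 to 0.407 at day 9 in WT, and these days did not overlap. At day 3 it was 0.265 to 0.679, which overlapped day 9. In WT MEFs this ratio was 2.68 to 3.24 at day 0, 0.49 to 1.3 at day 4, 0.249 to 0.485 at day 8 and 1.08 to 1.15 at day 12. Days 4 and 12 overlapped, and the other MEF days did not.

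Among the receptors, Csf1r measured 21.04, 21.2 and 10.2 CPM at day 0, 246, 446 and 418 at day 6 and 185, 342 and 265 at day 9 in WT preadipocytes. Fcgr3, a low-affinity Fc receptor, measured 10.3, 6.53 and 2.39, 156, 296 and 260.1 and 108, 193 and 159 CPM. The scavenger receptor gene Mrc1 (CD206) measured 23.0, 18.7 and 8.81, 1769, 2574 and 2701 and 562, 1328 and 1069 CPM. Each of these was far above its day 0 libraries on both later days, and all 6 Fc receptor and adaptor genes rose by day 9. Fcgr3 and Fcgr2b had counts that were not whole in 29 and 27 libraries, so reads were shared with other sequences, which the tables do not name.

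The remaining abundant genes were at like levels on days 6 and 9. Cd68, a lysosomal membrane protein, measured 13.6, 11.6 and 4.58, 136, 238 and 223 and 143, 245 and 208 CPM at days 0, 6 and 9. Laptm5, a lysosomal protein of blood cells, measured 21.4, 16.9 and 6.67, 124, 237 and 203 and 149, 246 and 217 CPM, and Adgre1 11.1, 8.26 and 2.64, 113, 171 and 170.0 and 117, 205 and 181 CPM. For all 3 genes the ranges of days 6 and 9 overlapped. Cd53 was the second most abundant gene per length at day 0, at a WT mean of 23.2 CPM per kb. It measured 63.1, 40.2 and 17.9 CPM at day 0 against 44.9, 81.3 and 63.1 at day 9, and these ranges overlapped. Cd53 thus weighed more in low leukocyte sums. It was 13.04 of 35.97 CPM in day 3 WT library 1 and 13.12 of 36.07 in day 0 DKO library 3. In day 9 WT library 2 it was 81.3 of 3509 CPM.

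**Figure D3:**
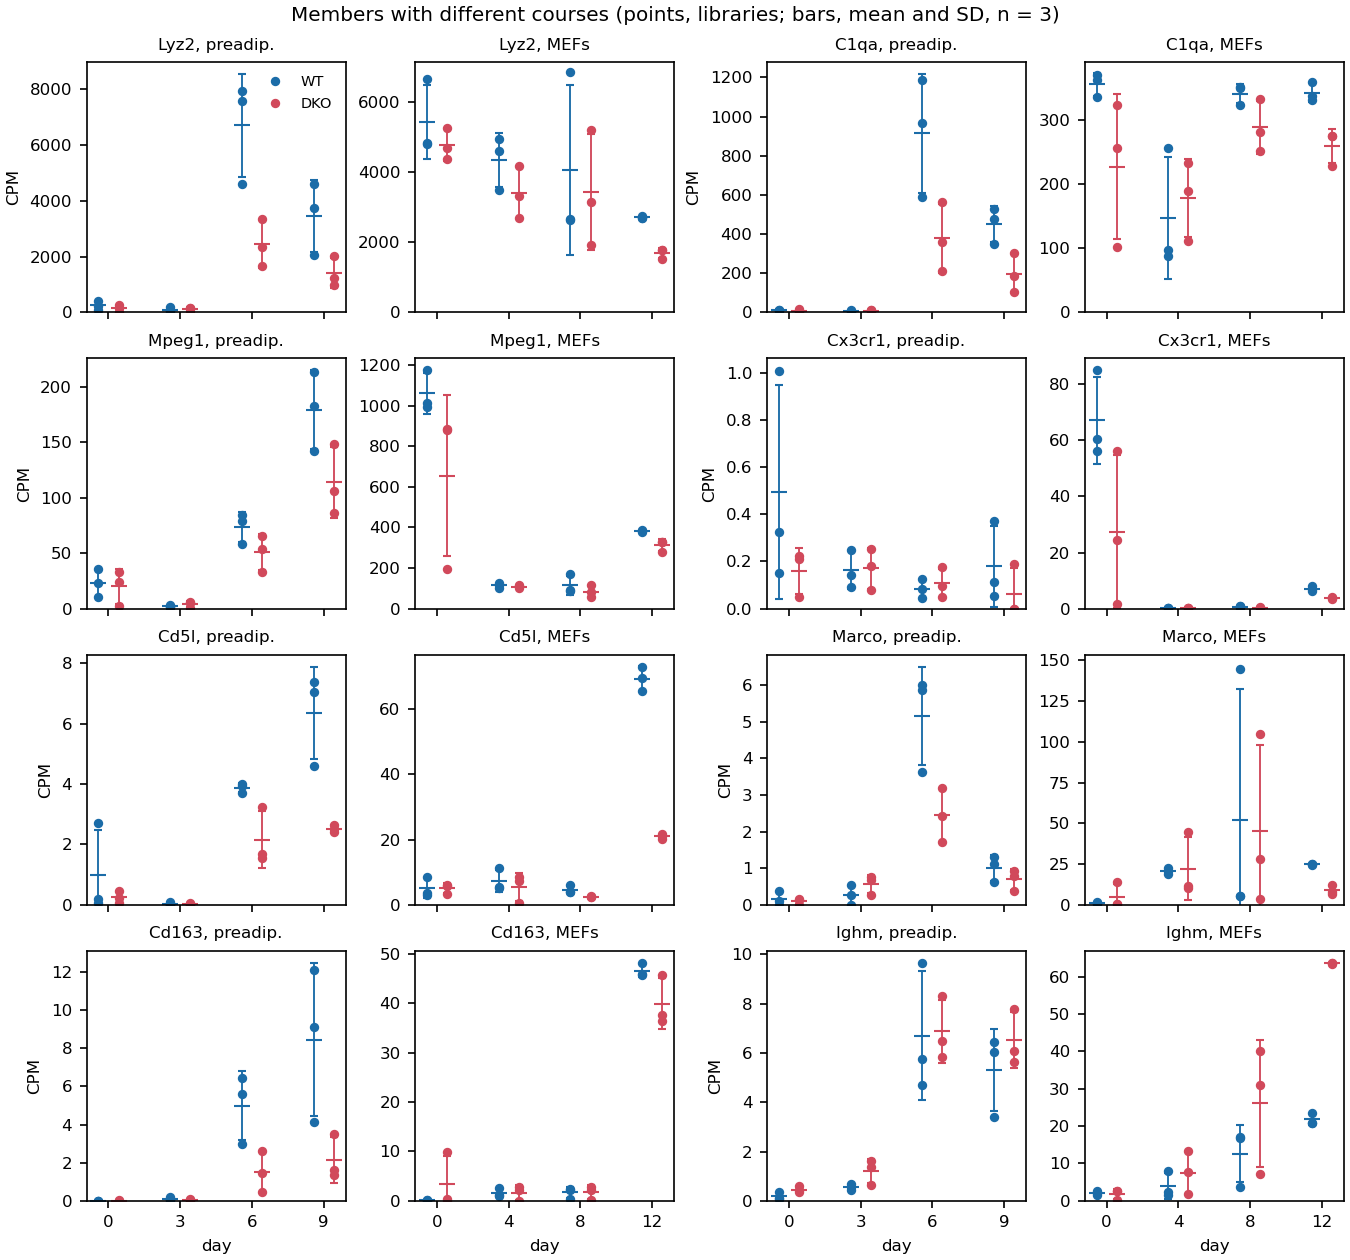
CPM of 8 genes by day in preadipocytes and MEFs, for WT and DKO; points are libraries, bars the mean and SD (n = 3). C1qa and Lyz2 peak at day 6 in preadipocytes, Cx3cr1 is at 1.67 to 85.05 CPM in MEFs at day 0 and 3.23 to 8.03 CPM at day 12 and at or below 1.01 CPM elsewhere, and Cd163 and Cd5l are highest in MEFs at day 12.

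In MEFs some macrophage genes fell and others rose between day 0 and day 12. The course between these days was not even. In WT MEFs the median fold of group means of leukocyte-restricted genes, with no test, was 0.31 from day 0 to day 4 (25 genes). It was 1.08 from day 4 to day 8 and 1.81 from day 8 to day 12 (26 genes each). In the first step 22 genes were lower without overlap, and in the last step 20 were higher without overlap. In WT MEFs 21 of 35 genes tested fell from day 0 to day 12 (14.3% of all genes) and 6 rose (15.8%), by edgeR's quasi-likelihood test, with a median log2 fold change of -0.88 against 0.00 for all genes. The 6 that rose were Mrc1, Cd163, Cd5l, Marco, Vsig4 and Ighm, of which 5 encode scavenger or pattern recognition proteins. Of the 9 tested genes of that role 3 others fell, Cd14, Cd68 and Clec7a, and Msr1 did not pass. All 5 leukocyte genes were lower, 4 of them past the threshold, and 5 of the 6 Fc receptor and adaptor genes fell. In DKO MEFs 5 of 35 fell (9.41%) and 3 rose (15.4%), namely Cd14, Cd84, Cybb, Lyz2 and Trem2 down and Cd5l, Vsig4 and Ighm up. Without day 0 DKO library 2, the library with the lowest leukocyte sum of that day, 4 rose and 22 fell.

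Cx3cr1, the fractalkine receptor, changed most among the lowered genes, from 56.3, 85.05 and 60.5 CPM at day 0 to 6.93, 6.41 and 8.03 at day 12 (-3.12 ± 0.22, SE, edgeR adjusted p = 0.000117). At day 4 it was 0.246, 0.0705 and 0.0703 CPM, at or near the limit of detection. Mpeg1 fell from 1011, 1176 and 992 to 388, 377 and 380.2 CPM. Lyz2 fell from 4827, 6659 and 4814 to 2689, 2694 and 2742 CPM, with -0.88 ± 0.14 on the log2 scale. In each case the days did not overlap.

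Csf1r fell from 416, 502 and 443 to 258, 250.1 and 248 CPM. Laptm5 fell from 328, 368 and 339 to 201, 187 and 187 CPM, and Cd68 from 273, 344 and 292 to 134, 126 and 127 CPM. Adgre1, at 309.9, 340.1 and 312 and 229.7, 226 and 221 CPM, and Ctss, at 397, 516 and 397 and 309, 304 and 309.5 CPM, had an adjusted p under 0.05 but not the fold. These days did not overlap for any of the 5 genes.

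At day 12 the C1q chains and Fcgr3 were near their day 0 levels in WT MEFs, after lower values at day 4. C1qa was 257, 88.4 and 97.1 CPM at day 4, and Fcgr3 96.2, 87.35 and 82.9 CPM. C1qa measured 336, 363 and 371 CPM at day 0 and 359.7, 337 and 331 at day 12. C1qb measured 435, 488 and 483 and 412, 411 and 409 CPM, and C1qc 329.7, 348 and 361 and 279.6, 280.2 and 276 CPM. Fcgr3 measured 163, 179 and 169 and 159.9, 161 and 167 CPM. None passed the fold, and C1qa at 0.07 ± 0.05 changed sign under other scalings.

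The scavenger genes that rose came from low levels. Cd163, the haemoglobin scavenger receptor, measured 0.135, 0 and 0.159 CPM at day 0, 2.41, 0.469 and 2.28 at day 8 and 45.8, 48.1 and 45.9 at day 12. Cd5l, a secreted scavenger protein of tissue macrophages, measured 3.54, 8.61 and 2.98, 4.02, 5.92 and 3.85 and 73.1, 69.5 and 65.6 CPM. Both reached their highest levels at day 12 and their day 8 and day 12 libraries did not overlap. Marco, a receptor for particles and bacteria, measured 0.673, 1.75 and 0.834, 5.48, 145 and 5.62 and 25.0, 24.8 and 24.6 CPM, and its high day 8 value belonged to WT library 2, the library low in adipocyte genes. Mrc1 measured 777, 627 and 763 CPM at day 0, 467, 111 and 98.5 at day 4 and 1027, 1040 and 1038 at day 12. Ighm went from 2.05, 2.66 and 1.59 to 23.6, 20.9 and 20.9 CPM, while Igkc, a light chain gene, was at 0 in every group.

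The cultures differed before differentiation began. At day 0, 31 of 34 genes were lower in WT preadipocytes than in WT MEFs (19.9% of all genes called lower), with a median log2 fold change of -4.88, and 31 of 33 were lower in DKO (15%), with a median of -4.76. In WT, Cd5l, Cd53 and Cd74 did not pass the test. Csf1r differed by -4.67 and Mpeg1 by -5.49 on the log2 scale. Tissue, age of the donors and handling all changed with cell type and cannot be told apart.

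The second question was whether the DKO cultures differed from WT on the same day. In preadipocytes at days 0 and 3, 0 of 27 genes tested were called by edgeR on either day, against 0.218% and 0.337% of all genes. At unadjusted p under 0.05 there were 0 and 1 (7.86% and 12.2% of all genes), and DESeq2 and limma-voom called 0 on both days. Summed leukocyte-restricted CPM was 247, 143 and 36.1 in DKO at day 0 and 81.7, 78.2 and 23.8 at day 3. These libraries overlapped with WT on both days. The DKO over WT ratio of 0.781 at day 0 ran from 0.494 to 1.07 when single libraries were left out.

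At day 6, 5 of the genes were called lower in DKO. Summed leukocyte-restricted CPM was 2793, 948 and 1786 in DKO against 2667, 4998 and 4275 in WT, a ratio of 0.463 (1842 ± 924 against 3980 ± 1193, SD, n = 3). DKO library 1 was level with WT library 1, so the groups overlapped. Of 33 genes tested, 5 fell by edgeR's quasi-likelihood test, Lyz2, Ctss, Trem2, Marco and Msr1, against 6.53% of all genes called lower. The fold change was below 0 for 32 of the 33, with a median of -1.09 against -0.01 for all genes. The libraries of 18 genes did not overlap, where 20.2% of all genes did not overlap in that direction.

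Lyz2 measured 3366, 1655 and 2341 CPM in DKO and 4595, 7567 and 7954 in WT, with no overlap, a difference of -1.45 ± 0.30 (SE, log2, edgeR adjusted p = 0.0188, 0.000741 to 0.184 over the alternatives). Ctss measured 112, 64.8 and 74.0 in DKO and 126, 223 and 194 in WT, a difference of -1.12 ± 0.28 (adjusted p = 0.0364, 2.93e-05 to 0.221 over the alternatives, edgeR). Trem2, a lipid-sensing receptor of macrophages, measured 22.1, 10.6 and 17.3 and 26.8, 43.0 and 39.5 CPM, a difference of -1.13 ± 0.29 (adjusted p = 0.0393, 0.000141 to 0.143 over the alternatives, edgeR). In all 3 genes every DKO library was below every WT library, and DKO library 2 was the lowest.

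Marco measured 2.44, 3.19 and 1.72 CPM in DKO and 3.62, 5.87 and 6.02 in WT, a difference of -1.09 ± 0.28 (SE, edgeR adjusted p = 0.0293, 0.00379 to 0.201 over the alternatives). Msr1, the class A scavenger receptor, measured 35.6, 17.3 and 27.7 and 46.6, 54.9 and 57.1 CPM, a difference of -0.98 ± 0.24 (adjusted p = 0.0349, 0.000176 to 0.238 over the alternatives, edgeR). Neither overlapped between genotypes. The other abundant genes had differences of like size and wider spread. C1qa measured 562, 209 and 361 CPM in DKO, a difference of -1.28 ± 0.42 (edgeR adjusted p = 0.0821), Mrc1 measured 1428, 401 and 1067 CPM (-1.29 ± 0.47, adjusted p = 0.103) and Csf1r measured 313, 79.7 and 175 CPM (-0.97 ± 0.51, adjusted p = 0.225).

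The day 6 calls depended on single libraries and on the test. Without WT library 2, WT library 3 or DKO library 3 none was called, and without DKO library 1 there were 14. DESeq2 called 14 and limma-voom 12. On the same day the summed CPM of the 7 adipocyte genes was 14570 to 18590 for WT and 21440 to 25940 for DKO. That of 9 fibroblast and preadipocyte genes was 3218 to 3894 for WT and 1705 to 2036 for DKO. Neither list overlapped between genotypes, and their part in the result was not tested.

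At day 9 the sum was 2030, 878 and 1248 CPM in DKO against 2090, 3509 and 2963 in WT, a ratio of 0.485 with no overlap. Of 34 genes tested, 1 fell, Cd5l, against 0.776% of all genes called lower. Cd5l measured 2.51, 2.40 and 2.63 CPM in DKO and 4.59, 7.39 and 7.06 in WT, a difference of -1.36 ± 0.22 (SE, edgeR adjusted p = 0.0411, 5.84e-05 to 0.224 over the alternatives). The median over the 34 was -1.05, 26 had an unadjusted p under 0.05 (27.1% of all genes), and 15 did not overlap (13.1% of all genes). Lyz2, at 2014, 972 and 1245 CPM in DKO, differed by -1.32 ± 0.37 (adjusted p = 0.0892, edgeR). The Cd5l call was lost without WT library 2, WT library 3, DKO library 1 or DKO library 3, and DESeq2 called 21 genes where limma-voom called 0. On this day the adipocyte sum was 19940 to 20400 CPM for WT and 24630 to 30810 for DKO, with no overlap. The fibroblast sum was 5165 to 5819 CPM for WT and 2474 to 5560 for DKO, with overlap, and the part of either in the result was not tested.

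**Figure D4:**
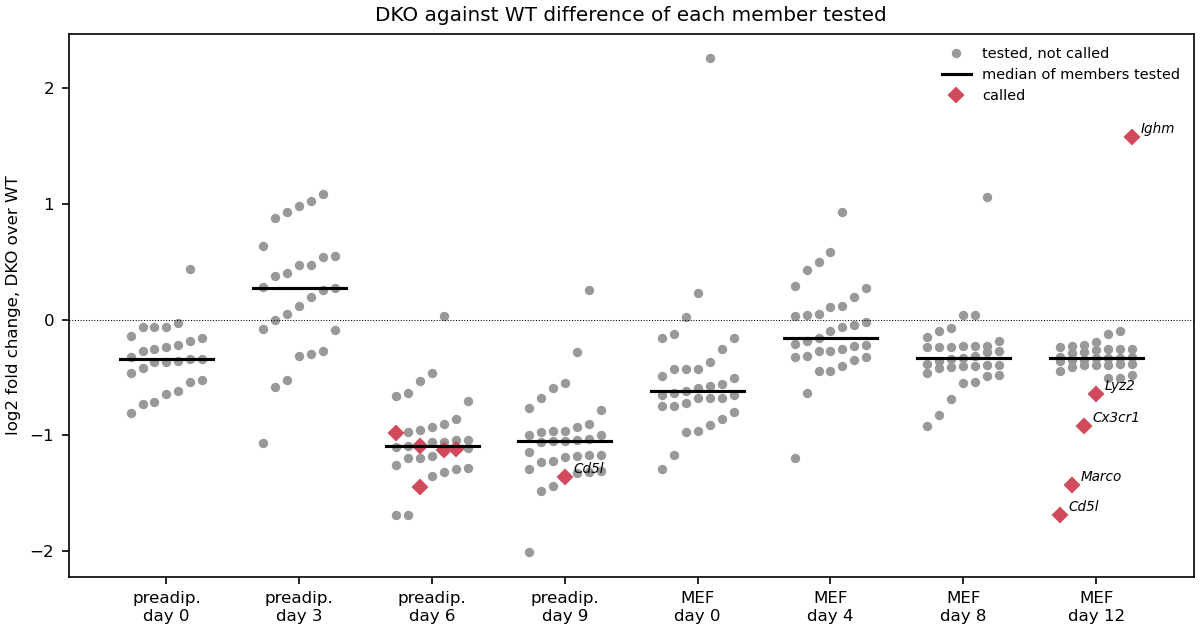
Log2 fold change (DKO over WT) of each tested gene on each day in preadipocytes and MEFs. Grey points are genes that were not called, red diamonds those called by edgeR, and black lines the medians, which are -1.09 and -1.05 at days 6 and 9 in preadipocytes and -0.33 in MEFs at day 12.

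In MEFs at day 0 the sum was 3813, 1587 and 3775 CPM in DKO against 4503, 5174 and 4628 in WT, a ratio of 0.641 that became 0.796 without DKO library 2. Of 33 genes, 0 were called by edgeR (0.102% of all genes), 11 had an unadjusted p under 0.05 (9.28%), and DESeq2 and limma-voom called 0. The libraries of 21 genes did not overlap, against 10.8% of all genes. Without DKO library 1, Cd14 and Coro1a were called. Cx3cr1 was 56.1, 1.67 and 24.6 CPM in DKO and Mpeg1 886, 196 and 880.5 CPM, the low value in each being DKO library 2. That library was not low in every gene. Lyz2 was 4684, 5263 and 4384 CPM in DKO and Marco 0.402, 13.9 and 0.726 CPM, the high value in each being DKO library 2. The 9 genes also used by other cells summed to 5993, 5927 and 6207 CPM.

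At days 4 and 8 again 0 of 33 and 0 of 34 genes were called by edgeR, against 0.0905% and 0.0595% of all genes, with 5 and 4 at unadjusted p under 0.05 (5.91% and 8.57% of all genes). DESeq2 and limma-voom called 0 on both days. The ratio of the sums was 0.984 at day 4 and 0.822 at day 8. Leaving out WT library 2 and DKO library 3 at day 8, an alternative chosen after seeing the data, gave a ratio of 0.896 and called Ighm higher. The libraries of 5 genes did not overlap at day 4 (7.21% of all genes) and of 8 at day 8 (8.71%).

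At day 12 the libraries of a group lay close together, so small differences passed the test. Between pairs of libraries the chi-square statistic per degree of freedom was 2.14 to 3.44 in WT and 2.92 to 11.7 in DKO. Over all MEF pairs it was 2.12 to 156. The small p-values of this day rest on that narrow spread, and the labels do not say that the libraries were separate cultures. The sum was 2274, 2033 and 2299 CPM in DKO against 2936, 2879 and 2871 in WT, a ratio of 0.761 with no overlap. Of 35 genes tested, 4 fell (4.05% of all genes called lower) and 1 rose (3.92% called higher) by edgeR's quasi-likelihood test. With no fold threshold 28 were lower and 1 higher, where 15.8% and 17.3% of all genes were. The median was -0.33, and 30 genes did not overlap in the lower direction, against 27.1% of all genes.

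Cd5l was 20.99, 20.1 and 21.8 CPM in DKO and 73.1, 69.5 and 65.6 in WT, a difference of -1.69 ± 0.06 (SE, edgeR adjusted p = 1.84e-11, 2.86e-165 to 0.106 over the alternatives). Marco was 7.83, 12.3 and 6.76 and 25.0, 24.8 and 24.6 CPM, a difference of -1.43 ± 0.19 (adjusted p = 0.0012, 3.21e-33 to 0.593 over the alternatives, edgeR). Cx3cr1 was 3.64, 3.23 and 4.17 and 6.93, 6.41 and 8.03 CPM, a difference of -0.92 ± 0.15 (adjusted p = 0.000159, 4.17e-08 to 0.559 over the alternatives, edgeR). The groups did not overlap for any of these. Lyz2 was 1794, 1523 and 1779 and 2689, 2694 and 2742 CPM, a difference of -0.64 ± 0.06 (adjusted p = 3.9e-07, 5.56e-52 to 0.33 over the alternatives, edgeR).

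Ighm moved the other way. It was 63.3, 63.7 and 63.5 CPM in DKO and 23.6, 20.9 and 20.9 in WT, a difference of 1.58 ± 0.06 (SE, edgeR adjusted p = 4.51e-11, 4.35e-141 to 0.246 over the alternatives), with B cell markers summing to at most 0.438 CPM in any library. In preadipocytes at day 9 Ighm was 6.09, 7.79 and 5.64 CPM in DKO and 3.42, 6.46 and 6.04 in WT, with overlap. In MEFs at day 8 it was 40.13, 30.95 and 7.247 CPM in DKO and 16.88, 3.794 and 17.07 in WT. The low value of either genotype belonged to the library low in adipocyte genes, and the link was not tested. A single fit over all days called none of the 5 genes at day 12 in MEFs. On this day the adipocyte sum was 8947 to 9244 CPM for WT and 13720 to 14580 for DKO. The fibroblast sum was 6738 to 6952 CPM for WT and 4439 to 4921 for DKO, and the part of either in the result was not tested.

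Most other abundant genes were lower in DKO MEFs at day 12 by less than the fold threshold. C1qa was 276, 229 and 275 CPM in DKO (-0.36 ± 0.07, SE, edgeR adjusted p = 0.00125), Csf1r 204, 179 and 206 CPM (-0.33 ± 0.05, adjusted p = 8.19e-05) and Mpeg1 329, 281 and 328 CPM (-0.25 ± 0.05, adjusted p = 0.00174). All 3 were below every WT library of that day. Cd163 was 36.3, 45.8 and 37.6 CPM in DKO against 45.8, 48.1 and 45.9 in WT (-0.19 ± 0.08, adjusted p = 0.078, edgeR), and DKO library 2 lay within the WT range.

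Whether the genotype difference itself changed with the day was tested as an interaction over all days of a cell type. Of 35 genes tested in preadipocytes 0 were called by edgeR's F test (2.08% of all genes) and 0 had an unadjusted p under 0.05 (18.3%). In MEFs 0 of 35 were called (0.0177% of all genes), and 1 was under 0.05 before adjustment, as 9.24% of all genes were. This was Fcgr2b, an inhibitory Fc receptor, with an adjusted p of 0.449 by edgeR's F test. A difference seen on one day is therefore not shown to differ from that on another.

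A list of 42 further myeloid genes that are not among the 38 was read the same way. In WT preadipocytes 36 of 39 tested rose from day 0 to day 9 (26.6% of all genes) and 1, the elastase gene Mmp12, fell (26.7%), with a median log2 fold change of 4.13. In DKO 35 of 39 rose (27%) and 0 fell (28.6%) by edgeR, with a median of 3.33. In DKO against WT preadipocytes 5 of 38 fell at day 6, against 6.53% of all genes (Cd52, Pik3ap1, Rac2, Tlr13 and Fcgr4, median of the list -0.97). At day 9, 5 of 40 fell, against 0.776% (Cd52, Clec4n, Fcgr4 and Csf2rb among them, median -1.08). In MEFs at day 12, 2 of 41 fell, Clec4n and Rac2, against 4.05% of all genes, and 2 rose, Pf4 and Mmp12, against 3.92%, with a median of -0.36. In WT MEFs 26 of 41 fell (14.3%) and 2, Cd86 and Pf4, rose (15.8%) from day 0 to day 12. These libraries are the same as those above, so the counts are a description and not a further sample.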

How the data were processed

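The authors aligned paired reads to mm10 with STAR and counted them with RSEM, and the deposited values are expected counts per gene, before normalization; the submitters' processing notes name bcl2fastq 2.17, cutadapt 1.18, STAR 2.7.0f and RSEM 1.3.0. All 55450 identifiers matched GENCODE M21. Here expected counts were rounded, filtered with filterByExpr, scaled by TMM and tested with edgeR 4.0.16 (robust quasi-likelihood test, R 4.3.3) on the groups compared. A gene was called at an adjusted p (Benjamini-Hochberg, over all genes tested) under 0.05 and a fold of at least 1.5. Interactions of genotype and day used an F test over all days of a cell type. Printed CPM values were scaled by TMM over all 48 libraries, and levels per kb used the summed exon length. The floor was 3 counts per library. Intervals from the fit cover the spread between libraries only. Alternatives were DESeq2 1.42.0, limma-voom 3.58.1 with quantile normalization, library size only, other filters, no fold threshold, a single fit over all days, a replicate block and leaving out each library.

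The 38 genes, their roles and the other lists were chosen with earlier results of these data known. Values by library are given for the 12 genes with the highest mean CPM and for every gene called in DKO against WT, and other genes are named where a count or a pattern turns on them, some after their values were seen. A few genes that fell under these rules are not reported here. On simulated counts edgeR called 99.5% of 200 genes changed 4-fold for preadipocytes at day 6 (14750 genes) and 100% for MEFs at day 12 (15279 genes). False calls made up 6.57% and 4.76% of its calls, in the same order. Recovery of changes smaller than 4-fold was not tested. Recovery at the spread that the 38 genes showed between libraries of a group was not tested either. Replicates were compared for double deposits: the chi-square statistic of each pair, divided by its degrees of freedom, was 2.12 to 156, and no pair was treated as 1 library.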

Additional observations from a re-analysis of the deposited data

How the results depend on the processing

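In DKO against WT preadipocytes at day 6, where 5 genes were called, DESeq2 called 14, limma-voom 12, no filter 2 and a single fit over all days 2, and leaving out 1 library gave 0 to 14. At day 9, where 1 was called, DESeq2 called 21, library size only 3, limma-voom 0 and no filter 3, and leaving out 1 library gave 0 to 2. In MEFs, a single fit over all days called 1 gene at day 0 and 0 at day 12, and no fold threshold called 29 at day 12. Leaving out 1 library gave 0 to 2 at day 0 and 0 to 1 for the interaction, and leaving out WT library 2 and DKO library 3 at day 8 called 1. For DKO MEFs at day 12 against day 0, where 8 were called, DESeq2 called 15, library size only 19 and limma-voom 14, and leaving out 1 library gave 6 to 26. With no filter, 20 genes were called between DKO preadipocytes and MEFs at day 0, instead of 31. C1qa in WT MEFs (0.07) turned to -0.08 with library size only and -0.03 with limma-voom. Cd53 in DKO preadipocytes from day 0 to day 9 (0.31) ranged from -0.14 to 0.98 when 1 library was left out, and was -0.01 without day 0 DKO library 3. The cause of these changes was not tested.

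With the replicate number as a block, 1 gene was called in preadipocytes at day 6 and 0 at day 9. Same-numbered libraries did not deviate together in every comparison (correlations of -0.735 to 0.671), so the numbers were not used as pairs. In DKO against WT preadipocytes at day 3 the correlations were 0.469, 0.025 and 0.563. In preadipocytes the leukocyte sum ranked the libraries of each genotype in the same order at days 6 and 9. Whether the same cultures were followed was not tested, so these days may not be independent. Library size only moved the median of all genes by up to -0.27 (DKO preadipocytes over time). It lowered the share of higher calls among all genes from 43.5% to 28.8% at day 6 and 37.7% to 16.2% at day 9 in preadipocytes and from 49.2% to 38.5% in MEFs at day 12. Over time that share went from 48.6% to 37.1% in DKO preadipocytes, 52.6% to 40.2% in WT MEFs and 62% to 37% in DKO MEFs, and between the DKO cultures at day 0 from 48% to 37.5%. Of 1020 alternatives for single genes, 928 kept direction and call, 56 lost the call, 32 gained it and 4 turned. The number of libraries, 3 a group, limits the precision.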

Other observations

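Genes of resident tissue macrophages that are not among the 38 were read the same way. In WT preadipocytes 5 of 6 tested (Clec10a, Cbr2, Lyve1, Folr2 and F13a1) rose from day 0 to day 9 by edgeR's quasi-likelihood test, against 26.6% of all genes, and in WT MEFs 6 of 7 (the same and Retnla) rose from day 0 to day 12, against 15.8%. F13a1, a transglutaminase subunit made by such cells, went from 0.327 ± 0.0822 to 751 ± 328 CPM (SD, n = 3) in WT preadipocytes and from 37.2 ± 24.3 to 780.1 ± 2.19 CPM in WT MEFs. Lyve1, a hyaluronan receptor, went from 0.874 ± 0.0793 CPM at day 0 to 197 ± 63.1 at day 6 and 103 ± 57.5 at day 9 in WT preadipocytes. Folr2, a folate receptor, went from 1.176 ± 0.135 to 60.4 ± 16.2 CPM between days 0 and 9. In DKO against WT preadipocytes none of these genes was called by edgeR at day 6 or day 9, and in MEFs at day 12, 1 of 7, Lyve1, was called lower, against 4.05% of all genes.

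Of 6 genes for ligands of CSF1R, CX3CR1 and CCR2, 5 fell from day 0 to day 9 in WT preadipocytes and 5 in DKO by edgeR's quasi-likelihood test, against 26.7% and 28.6% of all genes. Csf1, which feeds macrophages through CSF1R, went from 1423 ± 294 to 346 ± 36.2 CPM in WT, and Ccl2, which attracts monocytes through CCR2, from 197 ± 52.6 to 2.35 ± 0.622 CPM. In DKO against WT, 3 of the 6, Ccl2, Ccl7 and Ccl8, fell at day 6 (6.53% of all genes) and 1, Ccl8, at day 9 (0.776%). Il34, the other CSF1R ligand, was 3.58 ± 1.15 CPM at day 0 and 3.63 ± 0.158 CPM at day 9.

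Outside the 38, the genes whose log level followed the mean of the leukocyte-restricted genes most closely over the 24 preadipocyte libraries included Inpp5d (Pearson r = 0.997), Nfam1, C3ar1, Cd300c2, Hcls1, Ncf1, Nckap1l, Dock2 and Cd48 (r = 0.993), out of 15084 genes. In the 24 MEF libraries they were Fermt3 (r = 0.974), Wfdc17, Kcnk6, Casp1, Ptpn6, Nfam1, Tfec, Inpp5d, P2ry13 and Rgs14 (r = 0.961), out of 15014. The libraries share days and scaling, so these are descriptions. Among the leukocyte-restricted genes that entered the mean, 24 in preadipocytes and 26 in MEFs, the least alike were Clec7a (r = 0.301) and Marco (r = 0.725) in preadipocytes and Marco (r = -0.527) and Vsig4 (r = -0.354) in MEFs.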
